A study of Mus musculus with 9 samples.

Results

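The 10 genes described here encode parts of the contractile apparatus of skeletal muscle, and their transcripts were counted in cells taken from MC38 tumours with CD8a beads. They are Myh1, Myh2, Myh4, Mylpf, Xirp2, Acta1, Tnnc2, Tnnt3, Trdn and Ckm, and all 10 were found by symbol among the 25361 genes of the count table. The genes were chosen with earlier results of these libraries in view, so their differences between groups are given as a description. Counts of how many of them passed a threshold are printed beside the share of all genes that did, and nothing is read from them.

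The animals were male wild-type C57BL/6N mice that carried subcutaneous tumours of MC38, a colon carcinoma line. There were 3 groups of 3 libraries, described by the submitters as biological replicates: mice of 5 months with free access to food (young ad libitum), mice of 20 months that also ate freely (aged ad libitum), and mice of 20 months whose ration was 70% of what freely fed mice ate (aged restricted). Tumours were collected 21 days after injection, digested with collagenase D and dispase, freed of erythrocytes by lysis and passed over the beads. The libraries were made with a 3′ kit that gives reads from the polyadenylated end of a transcript, so counts do not scale with transcript length.

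A fast muscle fibre shortens when myosin heads of the thick filament pull on actin of the thin filament. Calcium released from the sarcoplasmic reticulum binds troponin on the thin filament and so opens the sites that myosin needs, and creatine kinase restores the ATP that each stroke uses. Fast and slow fibres use different genes for most of these proteins, among them the myosin heavy chains and the troponins. Muscle lies under the skin and around the body wall, and CD8 T cells are not known to build sarcomeres.

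The 3 fast myosin heavy chain genes sit side by side on chromosome 11, and their promoters are shown with that of Acta1 because Myh1 and Acta1 gave many of the reads, Myh4 the fewest, and Myh2 stood apart from the rest. The sequences are the 100 bases before the annotated start, from RefSeq on GRCm38.p6, at chr11:67200002-67200101 (+ strand), chr11:67170927-67171026 (+ strand), chr11:67237712-67237811 (+ strand) and chr8:123894776-123894875 (- strand). Capitals mark matches, on either strand, to 5 motifs: the E-box of the MyoD family, spelled CANNTG, the core promoter element spelled TATAAA, the muscle element known as MCAT and spelled CATTCC, and the binding motifs of MEF2 and of SRF (the CArG box).
Myh1: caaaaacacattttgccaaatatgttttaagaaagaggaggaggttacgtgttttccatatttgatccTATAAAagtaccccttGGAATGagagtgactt
Myh2: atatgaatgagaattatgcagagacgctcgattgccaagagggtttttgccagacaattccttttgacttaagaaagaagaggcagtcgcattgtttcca
Myh4: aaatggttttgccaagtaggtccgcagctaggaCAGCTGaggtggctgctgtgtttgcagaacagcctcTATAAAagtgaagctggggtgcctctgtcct
Acta1: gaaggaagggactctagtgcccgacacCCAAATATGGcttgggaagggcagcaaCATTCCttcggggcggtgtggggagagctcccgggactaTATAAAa
TATAAA stood close before the start in Myh1, Myh4 and Acta1, and Myh2 had no match to any of the 5 motifs in its 100 bases. Acta1 had a CArG box, the first capitals of its line, which only 0.615% of all 32851 promoter windows of the table held within the same 100 bases. TATAAA was held by 5.56% of all windows there, MCAT by 4.71%, MEF2 by 0.992% and the E-box by 34.4%. Windows of 300 bases were listed for 8 of the 10 genes, not for Trdn and Tnnt3. Within those 300 bases 6 of the 8 held an E-box (72.3% of all windows did), 4 TATAAA (13.6%), 3 MCAT (14.7%), 3 MEF2 (3.19%) and 2 a CArG box (1.63%). In Myh1 and Myh4 a reverse-strand TATAAA lay inside the MEF2 match. A match describes letters only, and no factor was measured.

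Library totals ran from 810662 to 1258575 counts, with the aged ad libitum libraries the shallowest. A single read was worth between 0.656 and 1.34 CPM, counts scaled to a library of 1000000 after TMM normalisation. Mitochondrially encoded genes took from 23.53% of counts in restricted replicate 2 to 45.67% in restricted replicate 1. Cd8a, the target of the beads, had 54, 11 and 5 reads in young mice, 59, 4 and 32 in their aged ad libitum counterparts and 47, 51 and 53 under restriction, so CD8 transcripts were present but scarce. The 10 listed T cell genes summed to between 47.5 and 430 CPM, and the 10 listed macrophage genes to between 2180 and 10300 CPM, above the T cell genes in every library.

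Added over the 10 genes, there were 2, 13 and 0 reads in young mice, 12, 33 and 40 among aged ad libitum mice and 372, 105 and 197 under restriction. Every aged restricted library lay above every aged ad libitum library, while young replicate 2 lay just above aged ad libitum replicate 1 in reads and just below it in CPM, 10.5 against 12.2. The summed level was 4.04 ± 5.63 CPM in young mice, 35.2 ± 20.1 CPM among aged ad libitum mice and 219 ± 176 CPM under restriction (SD, n = 3). Even in the highest library the 10 genes made up 0.0341% of all reads (exact 95% binomial interval 0.0307 to 0.0377), so they were a trace in every library. No molecular identifiers are described for these reads, so intervals and floors here cover counting error only. An at-least fold sets the group at 0 to a floor of 3 reads and takes the summed reads of the other group as they stand. It leaves out the counting error of that other group and is not a 95% limit.

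**Figure D1:**
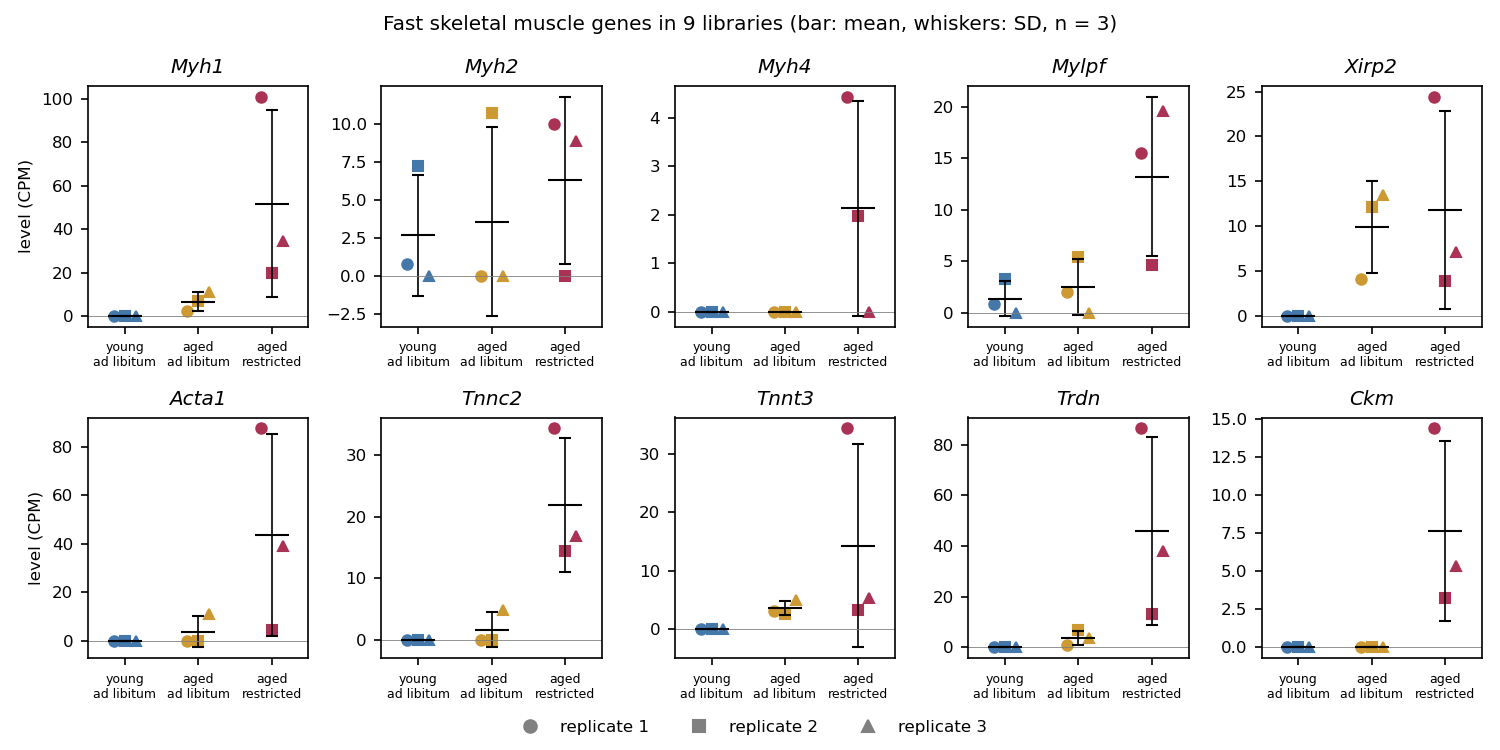
Level of each of the 10 genes in CPM (vertical axis, a separate linear scale for each gene) in the 3 groups; points are libraries, the bar is the mean and the whiskers are the SD of 3 libraries. Myh1, Acta1 and Trdn reached the highest levels, 101, 87.5 and 86.4 CPM in restricted replicate 1, and 8 genes lay at 0 in all 3 young libraries.

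The heavy chains of myosin form the motor of the thick filament. Myh1, the heavy chain of fast IIx fibres, had 0, 0 and 0 reads in young mice, 2, 5 and 9 in their aged ad libitum counterparts and 91, 30 and 39 under restriction. The 3 groups did not overlap. Its level was 6.6 ± 4.52 CPM among aged ad libitum mice and 51.7 ± 43.1 CPM under restriction (SD, n = 3), a fitted log2 difference of 2.96 ± 0.73 (SE). Against a floor of 3 reads over the young group, Myh1 was at least 7.51-fold higher in aged ad libitum and at least 53.8-fold higher in restricted mice.

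Myh2, the heavy chain of fast oxidative IIa fibres, did not follow that order. It had 1, 9 and 0 reads in young mice, 0, 8 and 0 in their aged ad libitum counterparts and 9, 0 and 10 under restriction, and all 3 groups overlapped. The ratio of aged restricted to young reads was 1.92 with a 95% counting interval of 0.848 to 4.61. Myh2 thus had reads in 2 young libraries in which Myh1 had none. Myh4, the heavy chain of the fastest IIb fibres, was the rarest of the 10, with no read in any young or aged ad libitum library and 4, 3 and 0 in the restricted libraries.

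The mix of the 3 heavy chains was measurable mainly in the restricted libraries, where their intervals overlapped for Myh1. Myh1 supplied 87.5% (exact 95% binomial interval 79.6 to 93.2), 90.9% (75.7 to 98.1) and 79.6% (65.7 to 89.8) of their reads in the restricted replicates 1, 2 and 3. Myh4 supplied 3.85% (1.06 to 9.56) in replicate 1 and 9.09% (1.92 to 24.3) in replicate 2. By the same interval, its absence among 49 reads in replicate 3 allows a share of up to 7.25%. The 3 genes are near-identical in part of their length. Of the 75-base windows in the last 500 bases of the annotated transcripts, 9.44% of those of Myh1, 11% of those of Myh2 and 2.57% of those of Myh4 were also found in another gene, mostly another myosin heavy chain. How the counting treated such reads is not given in the sources used here, so the split between the 3 is uncertain by about that part.

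Mylpf encodes the regulatory light chain that sits on the neck of fast myosin. It had 1, 4 and 0 reads in young mice, 2, 4 and 0 in their aged ad libitum counterparts and 14, 7 and 22 under restriction. The restricted libraries lay above all young libraries, whereas replicate 2 of the restricted group, at 4.59 CPM, lay below aged ad libitum replicate 2, at 5.36 CPM. In CPM, Mylpf was the only one of the 10 that was highest in restricted replicate 3.

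Acta1 encodes the actin of the thin filament in skeletal muscle. It had 0 reads in each young library, 0, 0 and 9 among aged ad libitum mice and 79, 7 and 44 under restriction. All reads of the aged ad libitum group came from replicate 3, whose 11.1 CPM exceeded the 4.59 CPM of restricted replicate 2, so these groups overlapped. Acta1 was at least 43.7-fold higher in aged restricted than in young mice. As a share of Acta1 and the cytoplasmic actins Actb and Actg1 together, it held 1.72% (exact 95% binomial interval 1.37 to 2.14), 0.0756% (0.0304 to 0.156) and 0.934% (0.679 to 1.25) in the restricted replicates. In the young group it had 0 of 21232 such reads, which allows up to 0.0174% by the same interval. Of the 75-base windows at its 3′ end, 0.704% were shared with another gene.

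Troponin is the calcium switch on that filament. Tnnc2, the calcium-binding subunit of fast fibres, had 0 reads in each young library, 0, 0 and 4 among aged ad libitum mice and 31, 22 and 19 under restriction. The restricted libraries stood at 34.3, 14.4 and 16.9 CPM, and all 3 lay above every aged ad libitum library. The ratio of aged restricted to aged ad libitum reads was 12.9 with a counting interval of 4.82 to 48.6. Tnnt3, the subunit that ties fast troponin to tropomyosin, had 0 reads in each young library, 3, 2 and 4 among aged ad libitum mice and 31, 5 and 6 under restriction. The young libraries did not overlap with either aged group, but the aged groups overlapped, and without restricted replicate 1 the restricted mean was 4.31 CPM against 3.55 CPM in aged ad libitum mice.

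Xirp2, an actin-binding repeat protein of the sites that anchor myofibrils, stood at similar levels in both aged groups. It had 0 reads in each young library, 4, 9 and 11 among aged ad libitum mice and 22, 6 and 8 under restriction. Its level was 9.89 ± 5.09 CPM among aged ad libitum mice and 11.8 ± 11 CPM under restriction (SD, n = 3), a ratio of reads of 1.07 with a counting interval of 0.623 to 1.88. Without restricted replicate 1 the restricted mean was 5.53 CPM, below that of aged ad libitum mice. Both aged groups lay above the young libraries, by at least 11.3-fold and at least 12.1-fold.

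Trdn encodes triadin, which holds calsequestrin beside the calcium release channel of the sarcoplasmic reticulum. It had 0 reads in each young library, 1, 5 and 3 among aged ad libitum mice and 78, 20 and 43 under restriction, and no 2 groups overlapped. The fitted log2 difference between the aged groups was 3.59 ± 0.83 (SE). Trdn was at least 4.23-fold higher in aged ad libitum and at least 47.4-fold higher in aged restricted than in young mice. Ckm, the muscle creatine kinase, had no read in any young or aged ad libitum library and 13, 5 and 6 in the restricted libraries, at least 5.73-fold higher than in aged ad libitum mice. Ckb, the brain-type creatine kinase of many other cells, had 122, 67 and 103 reads in the 3 groups, and was found in every library.

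Counted over the 10 genes, all 3 libraries of the group named first lay above all 3 of the other for 4 genes in aged against young ad libitum mice (7.4% of the 9009 tested genes did), for 4 in restricted against ad libitum aged mice (9.26%) and for 8 in aged restricted against young mice (9.82%). None of the 10 had all 3 libraries lower in any of these comparisons. Only 5 of the 10, Myh1, Acta1, Tnnc2, Trdn and Xirp2, had enough reads to enter the fit. The shares above cover tested genes only, and among these 5 the counts of genes above were 3, 3 and 5. Of those 5, none passed an edgeR adjusted p of 0.05 with age, where 0.289% of all tested genes did and 0.144% were higher. At an unadjusted edgeR p under 0.05 there were 3 of the 5, beside 933 of all 9009 tested genes. DESeq2 called 2 of the 5, beside 89 of all genes. With restriction 2 passed, Myh1 and Trdn (0.944% of all genes passed and 0.688% were higher), and in aged restricted against young mice 4 passed (1.94%, with 1.11% higher), all except Acta1. The genes were picked from these very contrasts, so nothing is read from these counts. They also rested on single libraries. With restriction, none passed when restricted replicate 1 or 3, or aged ad libitum replicate 1 or 3, was left out, and 1 passed without aged ad libitum replicate 2. Against young mice, 2 passed, Myh1 and Trdn, when any of the 3 young libraries or restricted replicate 1 or 3 was left out.

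Aged restricted replicate 1 was the highest restricted library for 9 of the 10 genes in CPM. Over all 9008 tested genes with a read in that group, 3071 were highest there. For the summed 10 genes it stood 5.98-fold above replicate 2, and for single genes from 2.25-fold (Myh4) to 19-fold (Acta1), leaving out Myh2, which had no read in replicate 2. The mean of the other 2 restricted libraries was 122 CPM, 3.47-fold above the aged ad libitum mean, against 6.21-fold with all 3. Among the aged ad libitum libraries replicate 3 was highest in sum, at 49.2 CPM, and replicate 1 lowest, at 12.2 CPM.

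Reads of the slow forms of these proteins were few in every library. Myh7, the slow heavy chain, had no read in any of the 9 libraries, against 186 reads of the 3 fast heavy chains in the restricted group. This allows a share of up to 1.96% there (exact 95% binomial interval). Tnnc1, the slow and cardiac troponin C, had 5 of the 5 reads of Tnnc1 and Tnnc2 in young mice and 4 of 8 in aged ad libitum mice. In the restricted group it had 1 read beside 72 of Tnnc2, a share of 1.37% (exact 95% binomial interval 0.0347 to 7.4). Tnnt1 held 10.6% (3.55 to 23.1) of the reads of Tnnt1 and Tnnt3 there. These were uneven, with 1 of 32, 4 of 9 and 0 of 6 reads in replicates 1, 2 and 3. Tnni1 held 4.69% (0.977 to 13.1) of the reads of Tnni1 and Tnni2 there. Such intervals pool the 3 libraries and leave out the spread between them. The largest of these pooled shares was that of the regulatory light chain. Myl2, its slow and cardiac form, had 4, 4 and 6 reads in the restricted libraries. These were 24.6% (14.1 to 37.8) of the reads of Myl2 and Mylpf there, an interval that overlapped that of Tnnt1. Actc1, the cardiac actin, had 6, 0 and 3 reads there and none elsewhere, 6.47% (3 to 11.9) of the reads of Actc1 and Acta1. The 9 slow fibre genes listed summed to 2.01 ± 2.24, 4.78 ± 0.657 and 7 ± 1.72 CPM in the young, the aged ad libitum and the restricted mice (SD, n = 3), and in the restricted group replicate 1 was the highest library for none of the 5 that had reads.

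**Figure D2:**
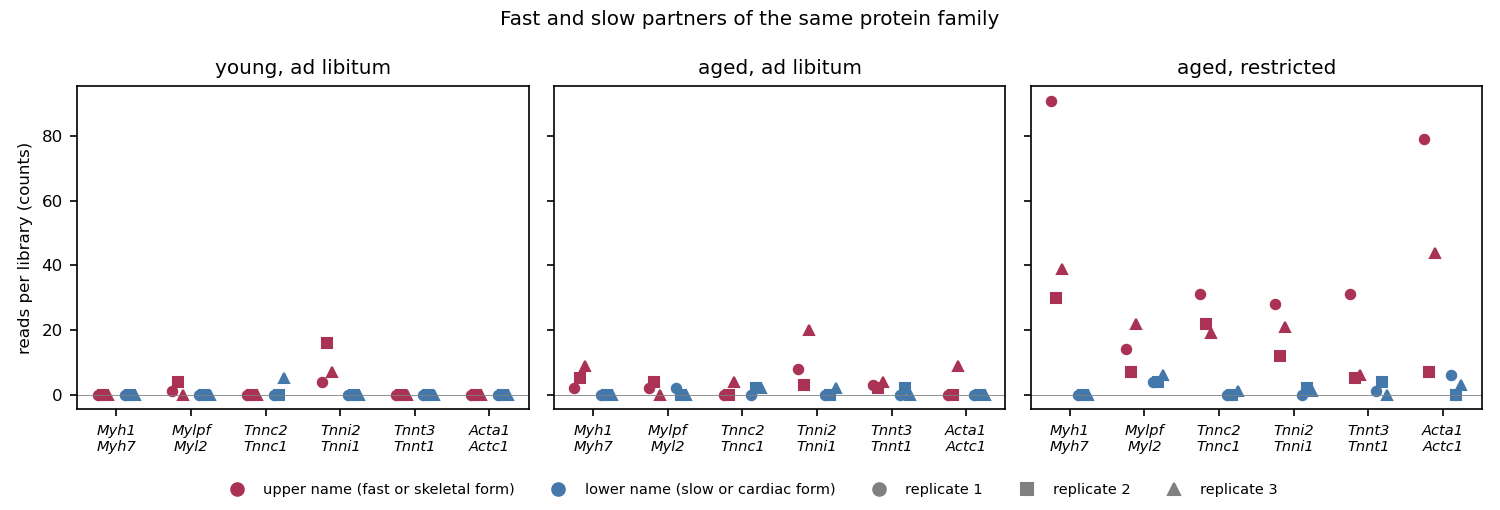
Reads per library (vertical axis, linear) for 6 pairs of related proteins, the fast or skeletal form in red and the slow or cardiac form in blue, in the young, the aged ad libitum and the restricted mice; points are libraries. In the restricted group the red points reach 91 reads for Myh1 and 79 for Acta1, while no blue point passes 6.

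Muscle genes outside the 10 were examined as well. Genes that non-muscle cells also use gave most of their reads, so their summed level and median cannot show whether the rest of the fibre followed. The lists hold 76 genes of the thick filament, thin filament, Z-disc and titin, calcium handling, energy supply and slow fibres, drawn up by function with earlier results known. Reads were found for 26 of the 76 in young, 36 in aged ad libitum and 51 in restricted mice, against 2, 8 and 10 of the 10 genes. Only 12 of the 76 could be tested. Of these, Ryr1 rose in aged restricted against young mice and the other 11 did not pass; none passed with age or with restriction (edgeR quasi-likelihood test, Benjamini-Hochberg over all 9009 genes). At an unadjusted p under 0.05 there were 1 with age, 0 with restriction and 3 against young mice, and DESeq2 called 0, 0 and 2. Over all 9009 genes there were 933, 1058 and 1045 at that unadjusted p, and DESeq2 called 89, 171 and 229. The median log2 fold change of the 12 was -0.11, 0.27 and 0.03 in these comparisons, beside 0.00, 0.00 and 0.02 over all genes.

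Ryr1 is the calcium release channel that triadin binds. It had 2, 2 and 0 reads in young mice, 0, 7 and 18 in their aged ad libitum counterparts and 53, 24 and 19 under restriction. Every restricted library lay above every young library, and the restricted and aged ad libitum groups overlapped. It rose by 4.63 ± 1.09 on the log2 scale against young mice (SE, edgeR adjusted p = 0.0203; 1.94% of all genes passed there). The call was lost without restricted replicate 1, where the log2 difference was 3.76 and the adjusted p = 0.304, and also without any of the 3 young libraries, with adjusted p from 0.0702 to 0.0974. With restriction the log2 difference was 1.53 ± 0.89 (SE, edgeR adjusted p = 0.532).

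Ttn, the giant spring of the sarcomere, had 8, 12 and 19 reads in young mice, 17, 62 and 25 in their aged ad libitum counterparts and 222, 32 and 54 under restriction. The restricted libraries lay above the young ones, but restricted replicate 1 held most of the reads. Its log2 difference against young mice was 3.22 ± 1.07 (SE) and did not pass (edgeR adjusted p = 0.285; adjusted p = 0.0464 with DESeq2). Tnni2, the inhibitory subunit of fast troponin, had 4, 16 and 7 reads in the young libraries, unlike Tnnc2 and Tnnt3, and stood at 7.46 ± 4.91, 12.3 ± 10.9 and 19.2 ± 11.6 CPM in the 3 groups (SD, n = 3; edgeR adjusted p = 0.579 for aged restricted against young mice).

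Other sarcomere and reticulum genes were too low to test. Myl1, the essential light chain of fast myosin, had 0 reads in each young and aged ad libitum library and 19, 0 and 10 in the restricted libraries. Atp2a1, the calcium pump of fast fibres, had reads in the restricted group alone, 17, 4 and 3, and was at least 5.73-fold higher there than in aged ad libitum mice. Neb, the nebulin ruler of the thin filament, had 0 reads in each young library, 0, 3 and 5 among aged ad libitum mice and 6, 10 and 5 under restriction. Pvalb, the calcium buffer of the fastest fibres, had 4, 0 and 2 reads in the restricted libraries and none elsewhere. Casq1, the calsequestrin of fast fibres, had no read in any library.

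The listed genes that non-muscle cells also use gave most of the reads of these lists and no called change. Tpm1, an alpha-tropomyosin found in many cell types, stood at 415 ± 67.2, 334 ± 69 and 315 ± 7.66 CPM in the young, the aged ad libitum and the restricted mice (SD, n = 3; edgeR adjusted p = 0.465 for aged restricted against young mice). Flnc, a filamin of the Z-disc and titin list, stood at 46.2 ± 14, 31.9 ± 8.26 and 20.1 ± 2.83 CPM (edgeR adjusted p = 0.22 for the same comparison). Its restricted libraries lay below every library of the other groups, the nearest at 22.3 against 22.4 CPM in aged ad libitum mice. Summed over all 76 genes, the level was 701 ± 75.5, 635 ± 118 and 772 ± 274 CPM (SD, n = 3). The differences of its log2(CPM + 1) were -0.15 with age, 0.24 with restriction and 0.09 against young mice. The exact 2-sided permutation p of these was 0.4, 0.7 and 1, each 1 after adjustment over the 3 comparisons, where 3 libraries against 3 cannot go below 0.1. Tpm1 supplied a large part of this sum, and without it, an alternative chosen after its counts were seen, the level was 286 ± 9.49, 302 ± 58.4 and 457 ± 270 CPM and the differences were 0.06, 0.47 and 0.52, with no test. Without restricted replicate 1, with Tpm1 kept, the differences with restriction and against young mice became -0.02 and -0.18.

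**Figure D3:**
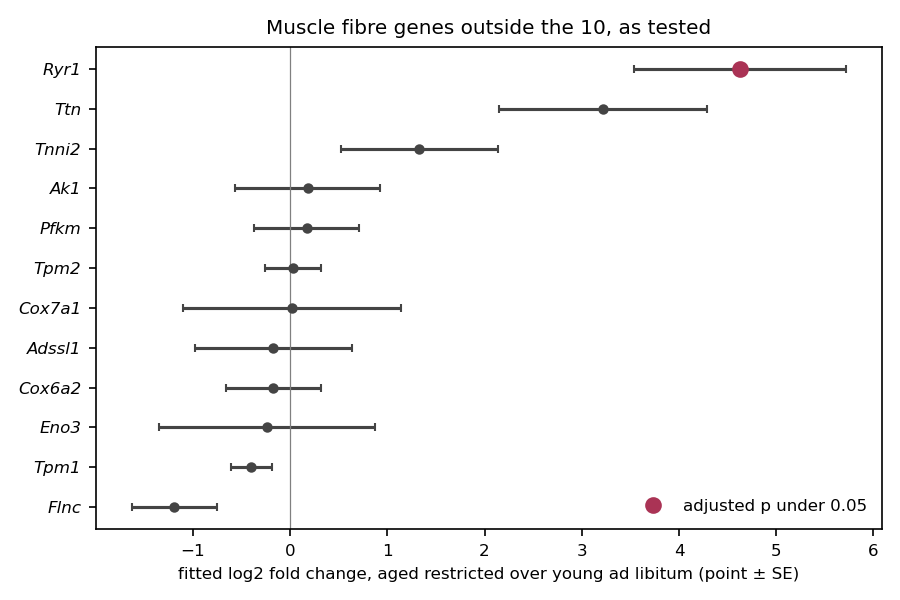
Fitted log2 fold change of aged restricted over young ad libitum mice (horizontal axis, point ± SE) for the 12 muscle fibre genes outside the 10 that had enough reads to test. Ryr1, at 4.63, is the gene that passed an adjusted p of 0.05, and 7 of the 12 lie above 0.

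The counterparts of these proteins in other cells summed to 9210 ± 504, 8680 ± 1370 and 8250 ± 892 CPM in the 3 groups (SD, n = 3), mostly from actins. Of 18 such genes, including Actb, Myh9, Tpm4 and Ckb, 15 had enough reads to test. None of the 15 passed in any of the 3 comparisons by edgeR or DESeq2. At an unadjusted edgeR p under 0.05 there was 1 in each, beside 933, 1058 and 1045 of all 9009 tested genes. The median log2 fold changes of the 15 were -0.08, -0.11 and -0.12. Genes of muscle stem cells and of fibre identity gave few reads: Pax7 had 2 reads in all, in restricted replicate 3, Myod1 had 1, and Myf5 and Myog had none. The smooth muscle list stood at 42 ± 13.8, 49.5 ± 14.4 and 36.4 ± 21.6 CPM, and Myh11, its heavy chain, had 3 reads over the 9 libraries.

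Markers of some other tissues also differed between groups. The 19 skin keratinocyte genes listed summed to 13.7 ± 1.49, 132 ± 55.5 and 616 ± 290 CPM in the young, the aged ad libitum and the restricted mice (SD, n = 3). Of 15 tested, 11 rose in aged restricted against young mice (1.11% of all tested genes did), 4 with restriction (0.688%) and 3 with age (0.144%). The 5 red blood cell genes summed to 2.48 ± 4.3, 71 ± 22.6 and 307 ± 167 CPM. All 4 tested rose in aged restricted against young mice, 0 of the 4 with restriction and 2 with age (edgeR). As a description, Pearson's r of log2(CPM + 1) with the summed 10 muscle genes over the 9 libraries was 0.88 for the keratinocyte list. It was 0.86 for the red blood cell list, and 0.39 for the listed muscle fibre genes outside the 10 (0.64 without Tpm1). Within the restricted group the order differed. Keratinocyte genes were at 386, 942 and 519 CPM in replicates 1, 2 and 3, highest in the library where the 10 muscle genes were lowest, and 14 of 19 were highest in replicate 2. Red blood cell genes, at 471, 137 and 312 CPM, had the same order as the muscle genes, at 412, 68.9 and 175 CPM.

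Macrophage and T cell transcripts had that order as well in TMM-scaled CPM. The 10 macrophage genes listed summed to 3580 ± 73.7, 3460 ± 1420 and 8230 ± 2250 CPM in the 3 groups (SD, n = 3). They stood at 10300, 5850 and 8510 CPM in the restricted replicates, and 4 of 10 rose with restriction (edgeR, 0.688% of all tested genes did). The 10 T cell genes summed to 121 ± 84.5, 211 ± 101 and 334 ± 125 CPM, with 430, 192 and 380 CPM in the restricted replicates. For these genes the order rested on the scaling. Without TMM, replicate 3 was highest, with 388, 293 and 427 reads in libraries of 1091933, 1258575 and 1145549 counts. None of the 9 tested T cell genes passed against young mice by edgeR or DESeq2. At an unadjusted edgeR p under 0.05 there were 5 of the 9, beside 1045 of all 9009 tested genes. The share of mitochondrially encoded reads was also highest in restricted replicate 1 and lowest in replicate 2. Adipocyte genes, another tissue under the skin, stood at 32.6 ± 21.3, 102 ± 15.6 and 82.9 ± 2.47 CPM, mostly from Fabp4, which endothelium and macrophages also express. Cfd had 13, 0 and 9 reads and Car3 had 8, 3 and 4 in the restricted replicates, Cidec had 6 in replicate 1, and none of these had a read in the other groups. Adipoq, the adipocyte's own hormone, had no read in any library. Endothelial genes had another order, at 91.8 ± 28.4, 329 ± 129 and 148 ± 89.4 CPM. With restriction 1 of 6 tested was lower (edgeR, 23 of all 9009 tested genes were). Fibroblast genes stood at 1090 ± 235, 967 ± 89.6 and 1040 ± 700 CPM, and none of the 5 tested passed in any comparison by edgeR or DESeq2. At an unadjusted edgeR p under 0.05 there were 0, 1 and 1, beside 933, 1058 and 1045 of all 9009 tested genes. The part of these differences in the muscle result was not tested. In cell mixtures of this kind, more cells or fibre fragments of a type and more RNA from each cannot be told apart.

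**Figure D4:**
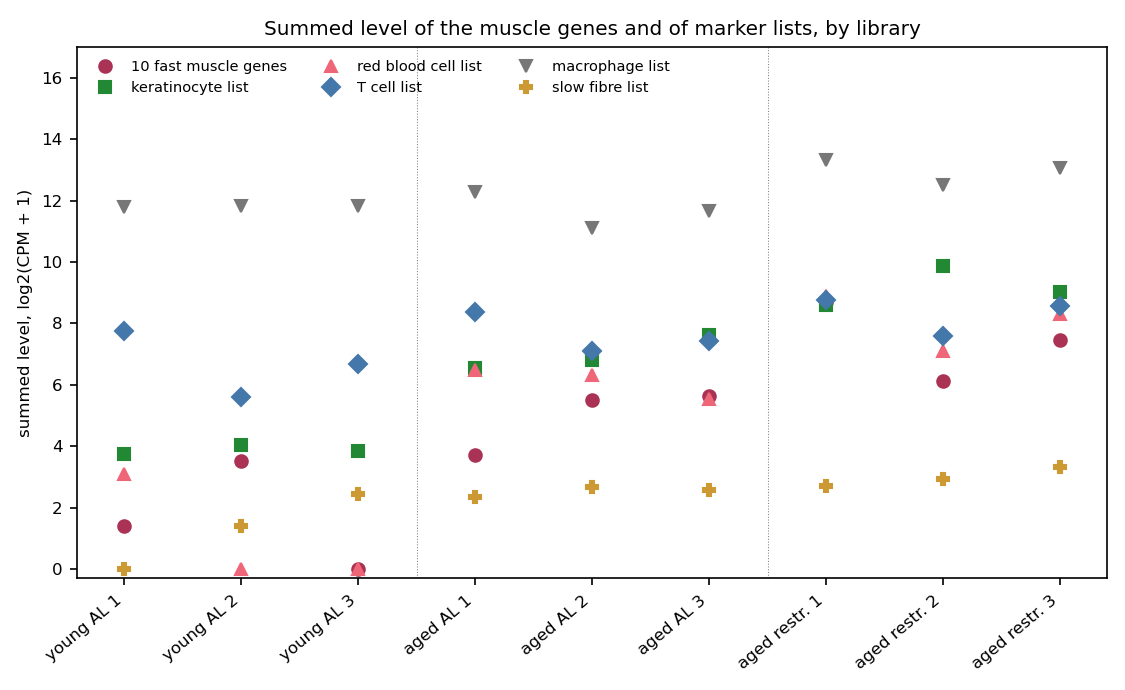
Summed level of the 10 fast muscle genes and of 5 marker lists in each of the 9 libraries, as log2(CPM + 1) on the vertical axis; each point is a library and dotted lines separate the groups. The muscle genes run from 0 CPM in young replicate 3 to 412 CPM in restricted replicate 1, and in the restricted group the keratinocyte list is highest in replicate 2, where the muscle genes are lowest.

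Among tested genes outside the 10, likeness to their summed level was measured as Pearson's r of log2(CPM + 1) over the 9 libraries. It is a description only, since the libraries fall into 3 groups and r ignores the size of a change. The 15 most alike included 1 listed muscle gene, Ryr1 (r = 0.89). Mrpl58, a mitochondrial ribosome gene, came first (r = 0.95) with a narrow range, at 21.4 ± 1.72, 31.9 ± 3.3 and 39.2 ± 5.54 CPM in the 3 groups (SD, n = 3).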

How the data were processed

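The authors deposited raw counts of reads per gene for 9 libraries, 1 column per library, whose totals differ. The tools named, per the submitters' processing notes, are featureCounts, STAR and Trim Galore, and the build named there is GRCm38 (mm10); versions, strand, multi-mapping and molecular identifiers are not given in the sources used here. The file's gene boundaries equalled those of GENCODE M21 (GRCm38) for 536 of the 25268 genes that both hold, and for none of the 10. The build of the file's coordinates is therefore not established, and none are printed.

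The test was the quasi-likelihood test of edgeR 4.0.16 in R 4.3.3, robust, with TMM scaling and filterByExpr at a minimum count of 10, fitted by group to all 9 libraries; 9009 genes were tested. P-values were adjusted by Benjamini-Hochberg over all tested genes at 0.05. CPM are counts scaled to 1000000 of the TMM-scaled filtered library. For a group at 0 reads, an at-least fold uses a floor of 3 reads over the group. No error is put on the summed reads of the other group. Other ratios of reads, and all shares, have exact 95% binomial intervals. No library was a copy of another of its group: the lowest chi-square over genes, divided by its degrees of freedom, was 5.65. The steps were tested on simulated data. The alternatives were DESeq2 1.42.0, other scalings, no filter, a replicate block and leaving out each library.

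The 10 genes and all lists were chosen with earlier results of these data known. Named list genes were those called in any comparison and the 3 highest by mean CPM of each list, of which a part is printed. Neb, Pvalb, Casq1, Myh7, Tnni1, Ckb, Pax7, Myod1, Myf5, Myog, Myh11, Cidec and Adipoq were named after their values were seen, and the genes most alike were the first 15 by r, of which a part is printed; 1 result is not reported here.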

Additional observations from a re-analysis of the deposited data

How the results depend on the processing

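The counts of called genes depended on the settings, as did the muscle calls. For age, 26 genes were called by edgeR, 89 with DESeq2, 126 without a low-count filter, 49 with the replicate block, and 2 to 91 when a library was left out. For restriction the 85 became 171 with DESeq2, 224 without the filter, 50 with plain library totals, 133 with the block, and 35 to 157 when a library was left out. For aged restricted against young mice the 175 became 286 without a filter and 98 to 242 when a library was left out. The 1 called muscle gene outside the 10 became 2 with DESeq2 and with plain library totals, Ttn being the second, and 0 to 2 when a library was left out. The summed level of those genes was -0.15 with age, 0.24 with restriction and 0.09 against young mice, and 0.06, 0.47 and 0.52 without Tpm1 (chosen after its counts were seen); leaving out a library gave -0.3 to -0.05 with age, -0.02 to 0.39 with restriction and -0.18 to 0.23 against young mice. The summed level of the 10 genes kept its direction, at 2.49 to 4.25, 1.85 to 3.12 and 4.96 to 6.72 on the log2 scale when a library was left out.

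Of 225 refitted log2 fold changes of the 5 testable genes, 217 stayed within 1 SD and 8 moved, all without restricted replicate 1 or aged ad libitum replicate 3; for Xirp2 with restriction 0.24 became -0.82 without the former. The cause of these changes was not tested. Between groups, deviations from the group mean of libraries with the same replicate number had r from -0.0281 to 0.0772 (median 0.048). For other pairs r ran from -0.0768 to 0.047 (median -0.0179), so same-numbered libraries were slightly more alike. These r values are small and the numbers are not taken to pair the mice, but a factor shared by same-numbered libraries was not tested. Of the 5 testable genes the block left 0 called with restriction. Depth is a further limit: a floor of 3 reads in a single library stands for 1.97 to 4.02 CPM.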
